A study of Homo sapiens with 24 samples.

Results

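The open chromatin around 4 genes known to be repressed by androgens, OPRK1, CAMK2N1, SESN3 and BCHE, was described in the prostate cancer line LNCaP and in its enzalutamide-resistant derivative RES-A. Members were the FAIRE-seq peaks of all 24 deposited lists that overlapped 4 windows on hg19: chr8 from 54.09 to 54.22 Mb for OPRK1, chr1 from 20.76 to 20.86 Mb for CAMK2N1, chr11 from 94.85 to 95.02 Mb for SESN3 and chr3 from 165.44 to 165.61 Mb for BCHE. They numbered 1192 of 4663440 peaks: 313 in the OPRK1 window, 111 in the CAMK2N1 window, 359 in the SESN3 window and 409 in the BCHE window. FAIRE-seq sequences the DNA that stays free of nucleosomes after formaldehyde fixation, so that a peak marks an open site.

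Parental LNCaP and RES-A cells were each studied in 4 groups of 3 libraries. Both sublines were first kept for 3 days in medium with 5% stripped serum, which is low in androgens, and RES-A cells alone also received 10 µM enzalutamide (ENZ) in those days. Cells were then treated for 18 h with DMSO (the vehicle), with 10 nM dihydrotestosterone (DHT), with 10 µM ENZ, or with DHT and ENZ at those same doses. The RES-A DMSO group was therefore not free of earlier exposure to ENZ. RES-A was derived by passaging LNCaP in rising ENZ concentrations for 9.5 months, and it stands for resistance as 1 line. The replicates are biological according to the study's methods.

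DHT is a potent natural androgen, and ENZ is an antiandrogen that blocks its action. Beside the genes that androgens turn on, prostate cancer cells hold genes whose transcripts fall when androgen is added and return when its action is blocked. OPRK1 encodes the kappa opioid receptor, a G protein-coupled receptor. CAMK2N1 encodes an inhibitor of calcium/calmodulin-dependent protein kinase II. SESN3 encodes sestrin 3, a stress-response protein that restrains mTORC1 signalling. BCHE encodes butyrylcholinesterase, a secreted enzyme that hydrolyses choline esters. The question put to the peaks was whether they fell with DHT and returned when ENZ was added to DHT, in each subline.

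The lists held 73254 to 275774 peaks, and their background, the read pileup per base that the peak caller took as the local floor, ran from 0.406 to 5.987. The parental ENZ replicate 1 (0.406) and the parental DHT replicate 1 (0.739) lay below 1. To set libraries of such unequal depth side by side, the 50000 top-ranked peaks of each list (ranked on -log10 p) were kept, and a region's rank score in a library was set at 100 for the strongest peak, falling to 0 at the end of those 50000 and at 0 where no top-ranked peak overlapped. Fold enrichment, where given, is that of the strongest overlapping peak of any rank.

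The 4 windows held 26 regions of merged top-ranked peaks: 5 for OPRK1, 4 for CAMK2N1, 7 for SESN3 and 10 for BCHE, numbered here by position. Their median length was 529.5 bp, against 429 bp over all 118932 regions. SESN3 regions 5 and 7 and BCHE region 4 held a top-ranked peak in all 24 libraries, 11.5% of the 26 against 10.6% of all regions. A test needed a top-ranked peak in at least 3 libraries, which 20 of the 26 regions had. OPRK1 region 4, CAMK2N1 regions 3 and 4, SESN3 regions 2 and 3 and BCHE region 8 did not. Of the 1192 peaks, 565 overlapped one of the 26 regions. The other 627 were weaker, and top-ranked peaks made up 20.5% of the members against 25.7% of all peaks.

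**Figure D1:**
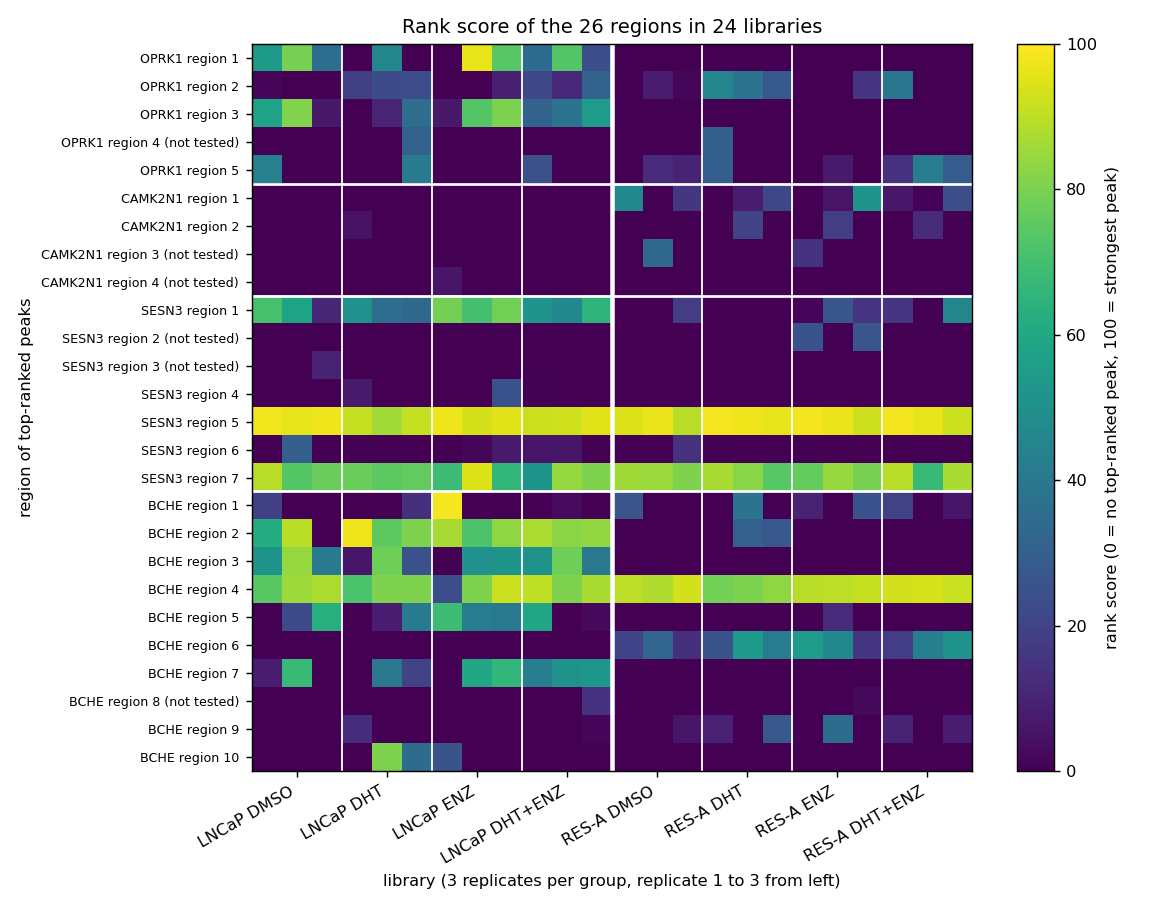
Rank score (colour, 0 to 100) of the 26 regions (rows, by gene and position) in the 24 libraries (columns, 3 per group, the thick line dividing LNCaP from RES-A). SESN3 regions 5 and 7 and BCHE region 4 were top-ranked in every library, whereas OPRK1 regions 1 and 3 and BCHE regions 3 and 7 were top-ranked in LNCaP only and BCHE region 6 in all 12 RES-A libraries but in 1 of LNCaP.

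No tested region fell with DHT. In LNCaP, 0 of 20 fell in DHT minus DMSO, where 3.22% of the 82582 regions tested across the genome did (limma, Benjamini-Hochberg adjusted p under 0.05). In RES-A, 0 of 20 fell, where 5.32% of all regions did. Of the 20, 6 in LNCaP and 9 in RES-A scored 0 in all 3 DMSO libraries and so could not fall on this scale, which leaves 14 and 11 regions. At an unadjusted p under 0.05, 2 of 20 fell in LNCaP and 0 in RES-A, beside 8857 and 8820 of all 82582 regions. The median difference of the 20 was -2.88 score units in LNCaP and 0 in RES-A, and that of all regions was 0 in both. Two-sided tests at 3 libraries per group left wide errors, so these counts do not show that the regions stayed level.

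Called rises were no more than about as frequent as over all regions. In LNCaP 1 of 20 regions rose with DHT, BCHE region 10, beside 4.9% of all regions. In RES-A 1 of 20 rose, OPRK1 region 2, beside 7.22%.

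When ENZ was added to DHT, no region rose in either subline, against 1.51% of all regions in LNCaP and 1.92% in RES-A. At an unadjusted p under 0.05, 0 of 20 rose and 1 of 20 fell in each subline. Of all 82582 regions, 6577 rose and 6083 fell in LNCaP at that limit, and 5520 and 5804 in RES-A. The full pattern, a called fall with DHT and a called rise with DHT+ENZ, was met by 0 of 20 in both sublines, beside 0.942% of all regions in LNCaP and 1.41% in RES-A. Both contrasts share the DHT libraries. Read on the group means alone, 9 of 20 regions were lower in DHT than in DMSO and higher again in DHT+ENZ in LNCaP (45%, against 35.2% of all regions), and 4 of 20 in RES-A (20%, against 32.8%).

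**Figure D2:**
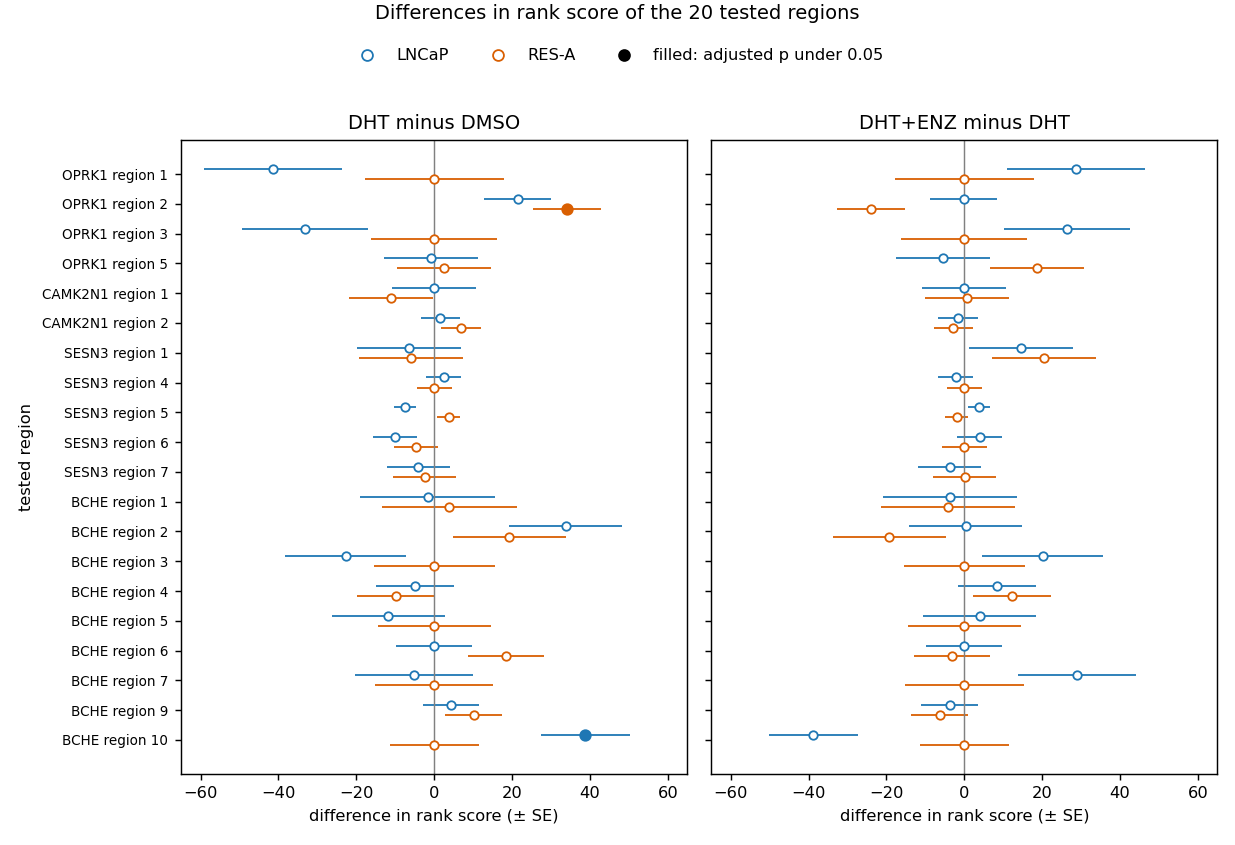
Difference in rank score with its standard error (limma) for the 20 tested regions, in DHT minus DMSO (left) and in DHT+ENZ minus DHT (right), for LNCaP (blue) and RES-A (orange), with filled points for an adjusted p under 0.05. The only filled points are the rises of OPRK1 region 2 in RES-A and of BCHE region 10 in LNCaP with DHT, and the lowest parental values in DHT minus DMSO are those of OPRK1 regions 1 and 3.

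In the OPRK1 window a site rose with DHT in RES-A, while others had their lowest parental means with DHT. Regions 1 and 3 were the parental sites nearest to the pattern asked for. Region 1 (chr8:54108991-54109752) had rank scores of 54.6, 79.4 and 36 in the LNCaP DMSO libraries, 0, 45.8 and 0 under DHT, 0, 96.1 and 74.1 under ENZ, and 35.1, 73.1 and 23.6 for DHT+ENZ. The DHT scores were below those of DMSO on the mean (15.3 against 56.7) but overlapped them. The difference was -41.4 ± 17.8 (SE, n = 3 and 3, adjusted p = 0.1814), and the one between DHT+ENZ and DHT was 28.7 ± 17.8 (adjusted p = 0.5148).

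Region 3 (chr8:54139833-54140362) likewise had its lowest parental mean in the DHT group. Its scores were 58, 80.9 and 6.9 with DMSO, 0, 10.3 and 35.9 under DHT, 6.7, 73.3 and 80.2 under ENZ, and 31.9, 38.2 and 55.2 for DHT+ENZ. The difference in DHT minus DMSO was -33.2 ± 16.2 (adjusted p = 0.2565). The outcome rested on single libraries: without the parental ENZ replicate 1, region 1 passed in DHT minus DMSO (-41.4, adjusted p = 0.0459), and without the parental DMSO replicate 3, region 3 did (-54, adjusted p = 0.0391). In RES-A, both regions scored 0 in all 12 libraries, so a fall with DHT had no room to appear on this scale. Weaker peaks lay there: region 1 had one in 12 of 12 RES-A libraries, at folds of 3.89 to 6.34, and region 3 in 11 of 12. On log2 fold enrichment, region 3 was lower with DHT than with DMSO in both sublines, though uncalled. The differences were -1.09 ± 0.5 in RES-A (adjusted p = 0.3969) and -1.26 ± 0.5 in LNCaP (adjusted p = 0.0947). At region 1 they were -0.2 ± 0.52 in RES-A and -1.36 ± 0.52 in LNCaP (adjusted p = 0.0876).

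Region 2 (chr8:54119050-54119625) went the other way. In RES-A it scored 0, 7.6 and 1.2 with DMSO, 45.4, 38 and 27.7 under DHT, 0, 0 and 15.1 under ENZ, and 39.1, 0 and 0 for DHT+ENZ. All 3 DHT libraries lay above all 3 DMSO libraries. The rise was 34.1 ± 8.7 (adjusted p = 0.01004), and the drop on adding ENZ, -24 ± 8.7, did not pass (adjusted p = 0.1424). It passed without the RES-A DHT+ENZ replicate 1 (-37, adjusted p = 0.003356), the library at 39.1. In LNCaP the scores were 1.3, 0 and 0 with DMSO, 19.1, 22.8 and 23.5 with DHT, and 21.2, 11.7 and 32 with DHT+ENZ. These groups did not overlap between DMSO and DHT either, though the difference of 21.4 ± 8.7 did not pass (adjusted p = 0.151), other than without the RES-A DHT+ENZ replicate 1 (adjusted p = 0.0481), and parental DHT+ENZ libraries were as high as those with DHT. The RES-A rise was not called on log2 fold enrichment (0.31, adjusted p = 1) and was lost without the RES-A DHT replicate 1 (29.9, adjusted p = 0.0532).

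Many sites in the window were too weak to be top-ranked, so the test was repeated on all deposited peaks merged, with log2 fold enrichment and a fold of 1 where a library had no peak. This fit was added after the data had been seen. It gave 222 regions in the 4 windows, of which 75 had a peak in at least 3 libraries. In LNCaP 1 of 75 rose with DHT and 0 fell, beside 0.179% and 0.666% of 307955 regions. In RES-A 3 of 75 rose and 0 fell, beside 1.9% and 1.13%. All of these rises lay in the OPRK1 window. On adding ENZ to DHT, 1 of 75 fell in RES-A, beside 0.655%, and none rose in either subline, beside 0.11% in LNCaP and 0.337% in RES-A. These counts moved when libraries were left out: 2 regions fell with DHT in LNCaP without DHT replicate 2 and 1 without ENZ replicate 1, 1 fell in RES-A without DMSO replicate 2 or DHT replicate 3, and 1 rose on adding ENZ in RES-A without ENZ replicate 3. On adding ENZ to DHT, 1 fell in LNCaP without ENZ replicate 2, and in RES-A 2 fell without LNCaP DMSO replicate 3 or RES-A DHT replicate 1 and 0 without RES-A DHT replicate 2.

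The site called in both sublines, OPRK1 region b (chr8:54136912-54137289, 378 bp), lay between regions 2 and 3. It had no peak in any of the 6 DMSO libraries. With DHT its folds were 3.83, 3.73 and 3.42 in LNCaP and 2.93, 4.3 and 2.93 in RES-A. With ENZ it had a peak in 1 of 3 LNCaP libraries, at 2.32, and in none of RES-A, and with DHT+ENZ in 1 of 3 LNCaP libraries, at 2.09, and in none of RES-A. Thus each DHT library had a peak and each DMSO library none, in both sublines. The log2 difference in DHT minus DMSO was 1.87 ± 0.36 in LNCaP (adjusted p = 0.01371) and 1.74 ± 0.36 in RES-A (adjusted p = 0.006097). In DHT+ENZ minus DHT it was -1.51 ± 0.36 in LNCaP (adjusted p = 0.1052, and 0.0427 without LNCaP ENZ replicate 2) and -1.74 ± 0.36 in RES-A (adjusted p = 0.01248). The difference between the sublines in the response to DHT was -0.13 ± 0.5 (adjusted p = 0.9968). The site passed the filter only through its DHT libraries, which supply 6 of its 8 peaks, and all 6 DMSO values were the set fold of 1. Its p-values, and whether they held below, therefore describe a site selected on its DHT peaks and are no separate support. The parental call was lost without LNCaP DMSO replicate 1 (adjusted p = 0.0583) and the RES-A fall without RES-A DHT replicate 2 (adjusted p = 0.0719), whereas the RES-A rises of this site and of region 4 held without each of the 24 libraries in turn.

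The other 2 rises were called in RES-A. OPRK1 region 4 (chr8:54140533-54140841) lay just past the end of region 3. It had no peak in the RES-A DMSO and ENZ libraries, folds of 7.08, 5.12 and 5.96 with DHT, and 2.83 and 2.63 in 2 of the 3 DHT+ENZ libraries. The rise was 2.58 ± 0.45 on the log2 scale (adjusted p = 0.001413) and the difference in DHT+ENZ minus DHT was -1.62 ± 0.45 (adjusted p = 0.1092, and 0.0352 without LNCaP DMSO replicate 3). In LNCaP it had folds of 3.17 and 3.56 in 2 DMSO libraries and 3.58, 4.24 and 4.27 with DHT (0.84 ± 0.45, adjusted p = 0.3824). OPRK1 region a (chr8:54116707-54116999) had no peak in the 12 LNCaP libraries. In RES-A its folds were 2.78 in 1 DMSO library, 4.76, 3.75 and 5.06 with DHT and 2.69, 4 and 2.74 with DHT+ENZ (DHT minus DMSO 1.67 ± 0.41, adjusted p = 0.02347), a call that was lost without RES-A DMSO replicate 1 or 2 or without RES-A DHT replicate 1 or 3. The difference between the sublines in the response to DHT did not pass at region 4 (1.74 ± 0.63, adjusted p = 0.3862) or at region a (1.67 ± 0.58, adjusted p = 0.3525).

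**Figure D3:**
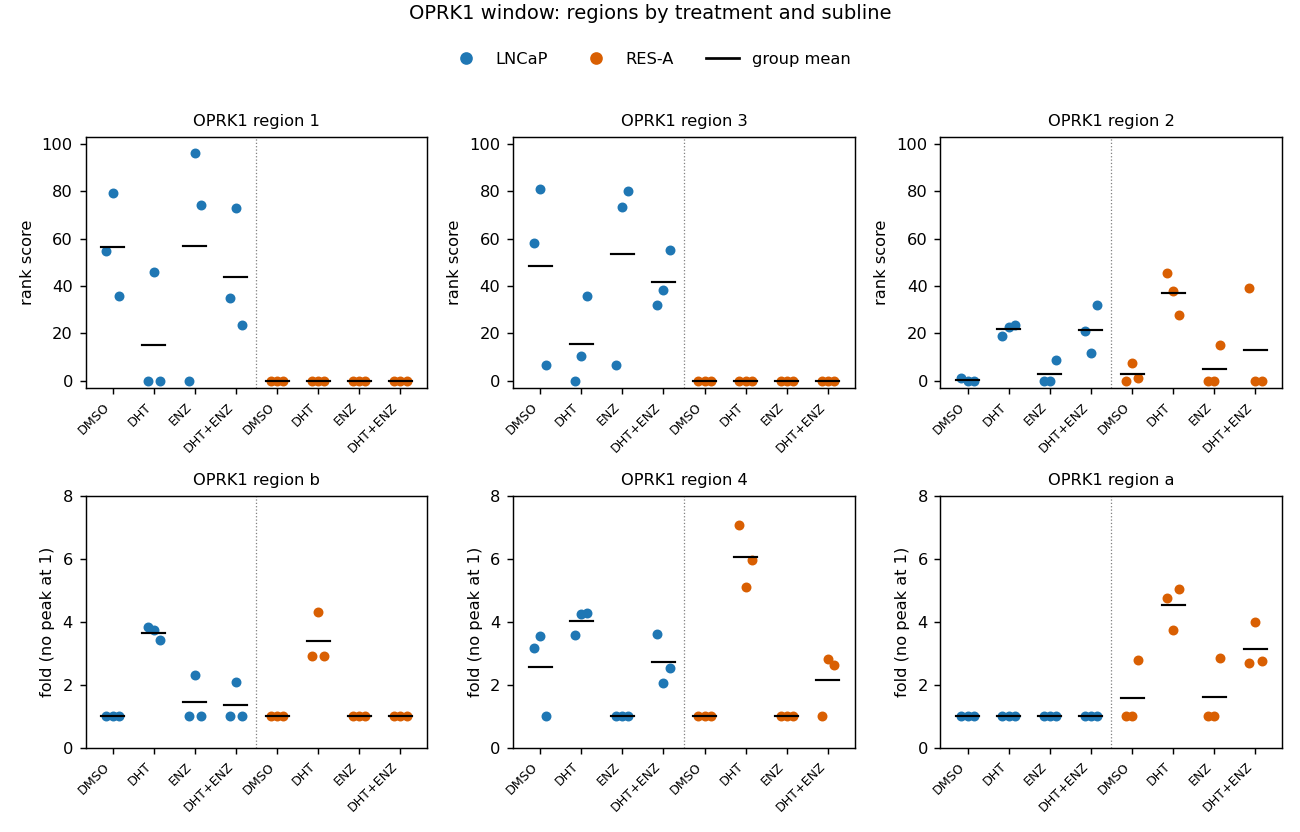
OPRK1 regions in the 8 groups, LNCaP in blue and RES-A in orange, each point a library and each line the mean of 3 libraries. The upper row gives rank scores of regions 1, 3 and 2, and the lower row fold enrichments of regions b, 4 and a, with no peak drawn at 1. Region b lay at 1 in the 6 DMSO libraries and between 2.93 and 4.3 in the 6 DHT libraries, while regions 1 and 3 were at 0 in all RES-A libraries.

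With log2 of the background added as a covariate to the fit on all peaks, a further choice made after the data had been seen, 4 of 75 regions did fall with DHT in LNCaP, beside 7.6% of all regions. They were OPRK1 region 1 (-1.33 ± 0.34, adjusted p = 0.02013) and region 3 (-1.24 ± 0.36, adjusted p = 0.03447), CAMK2N1 region 1 (-1.19 ± 0.3, adjusted p = 0.01975) and SESN3 region 5 (-0.48 ± 0.13, adjusted p = 0.03013). None of them rose with DHT+ENZ in that fit, where no member was called in DHT+ENZ minus DHT in LNCaP. On this scale the median over all regions was itself lower in DHT than in DMSO in LNCaP, by -0.171 without the covariate. At OPRK1 regions 1 and 3 and CAMK2N1 region 1, only 2 of the 3 LNCaP DHT libraries had a peak, the other being set at a fold of 1. At CAMK2N1 region 1 that was DHT replicate 1, of a background of 0.739. The DHT libraries with a peak there had folds of 3.14 and 3.58, against 4.97 to 5.59 with DMSO.

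SESN3 had a site that ranked near the top in every library. Region 5 (chr11:94964294-94964970) scored 97.8, 96.1 and 97.3 with DMSO in LNCaP, 91.4, 86 and 91.2 under DHT, 97.3, 93.4 and 95.2 under ENZ, and 91.8, 92.7 and 95.5 for DHT+ENZ. The DHT libraries lay below all DMSO and all DHT+ENZ libraries, with small steps. The difference in DHT minus DMSO was -7.5 ± 2.9 (adjusted p = 0.1207), and that in DHT+ENZ minus DHT was 3.8 ± 2.9 (adjusted p = 0.6513). In RES-A it scored 94.7, 97.2 and 89.4 with DMSO and 98.5, 97.5 and 96.3 with DHT. The difference between the sublines in DHT minus DMSO, 11.2 ± 4.1, did not pass (adjusted p = 0.1411). On log2 fold enrichment the parental fall passed (-0.47 ± 0.14, adjusted p = 0.0409), as did 8.44% of all regions there, and the median over all regions was -0.456 in the same contrast.

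Region 7 of SESN3 (chr11:94987198-94988159) was also top-ranked in every library, at 51.6 to 94.7 in LNCaP and 67.4 to 89.4 in RES-A. It gave differences in DHT minus DMSO of -4.1 ± 8.1 in LNCaP and -2.4 ± 8.1 in RES-A. SESN3 region 1 (chr11:94879961-94880524) ranked higher in LNCaP, though all 12 libraries of each subline had a peak there. The median folds were 6.59 in LNCaP and 6.8 in RES-A. It scored 70.8, 58.2 and 10.6 with DMSO in LNCaP, 50.7, 35.7 and 33.7 under DHT, 79.2, 70.7 and 78.7 under ENZ and 51.9, 46.7 and 65.1 for DHT+ENZ. In RES-A, 6 of 12 libraries scored above 0, from 1.3 to 45.8, and none of these had DHT alone. Regions 4 and 6 were top-ranked in 3 and 6 libraries, with scores up to 25.2 and 30.4, and were called in no contrast on the rank score. On log2 fold enrichment region 4 was higher in RES-A (0.47, adjusted p = 0.0434).

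BCHE had the most regions of the 4 windows, and 5 of the 9 regions that differed between the sublines on the rank score lay there. Region 4 (chr3:165471055-165471893) was top-ranked in every library. Its folds were 4.59 to 7.35 in LNCaP and 9.49 to 13.24 in RES-A. On log2 fold enrichment (limma), RES-A minus LNCaP was 0.84 ± 0.08 (adjusted p = 2.669e-08). In RES-A its scores were 90.1, 88.1 and 93.1 with DMSO, 78.7, 80.1 and 83.3 under DHT, 89.4, 90.2 and 91.2 under ENZ, and 93.3, 94.1 and 91.7 for DHT+ENZ. The DHT libraries lay below those of every other RES-A group without overlap. The differences did not pass, at -9.7 ± 10 in DHT minus DMSO (adjusted p = 0.7937) and 12.3 ± 10 in DHT+ENZ minus DHT (adjusted p = 0.8137). The standard error was pooled over all 8 groups, and the parental ENZ replicate 1 scored 24.2 at this region. Without the 2 libraries of a background under 1, the rise with DHT+ENZ passed (12.3, adjusted p = 0.0406). On log2 fold enrichment the same 2 differences in RES-A were -0.02 ± 0.16 and 0.1 ± 0.16. In LNCaP region 4 scored 74.5, 85.3 and 87.8 with DMSO, 71.8, 80.7 and 80.5 with DHT and 90.3, 80.8 and 87.2 with DHT+ENZ.

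BCHE region 10 (chr3:165601241-165602204) was the region that rose with DHT in LNCaP. Its scores were 0 in all 3 DMSO libraries, 0, 80.8 and 35.5 under DHT, 25.5, 0 and 0 with ENZ and 0 in all 3 DHT+ENZ libraries. In RES-A it scored 0 throughout. The rise of 38.8 ± 11.4 passed (adjusted p = 0.03727), although the groups overlapped and the region was top-ranked in only 3 libraries, while the drop with DHT+ENZ just missed (-38.8 ± 11.4, adjusted p = 0.0545). The rise was lost without any 1 of the 3 DMSO libraries (adjusted p = 0.0812 to 0.0868). The region passed the filter of 3 libraries only through DHT replicates 2 and 3 and ENZ replicate 1, the last of a background of 0.406. Without any 1 of those libraries it could not be tested. Without LNCaP DHT replicate 1, a library of low background, the rise was 58.2 (adjusted p = 0.0001396) and the drop with DHT+ENZ -58.2 (adjusted p = 0.0001947). The differences between the sublines passed as well there, at adjusted p = 0.004188 for DHT minus DMSO and 0.006317 for DHT+ENZ minus DHT. On log2 fold enrichment it was 0.43 (adjusted p = 0.5653).

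Region 2 of BCHE (chr3:165464428-165465414) scored 62, 89.7 and 0 with DMSO in LNCaP and 97.5, 75 and 80.5 with DHT, and its parental ENZ and DHT+ENZ libraries lay between 71.9 and 87.6. It was at 0 in the 9 RES-A libraries without DHT alone, and at 0, 30.7 and 27.1 in the RES-A DHT libraries. Neither difference passed in the main test (33.8 ± 14.5 in LNCaP, adjusted p = 0.1814). The parental one passed without LNCaP DMSO replicate 2 (53.3, adjusted p = 0.0181), and the RES-A one with 70000 top-ranked peaks (41.4, adjusted p = 0.0266). Region 3 (chr3:165470162-165470851) scored 51.9, 84.3 and 41.1 with DMSO in LNCaP, 6.1, 78.1 and 25.1 with DHT and 51.5, 78 and 40.1 with DHT+ENZ, and was at 0 in RES-A. Region 7 (chr3:165553793-165555032) scored 8.2, 67.6 and 0 with DMSO in LNCaP, 0, 39.9 and 20.4 with DHT and 42.8, 51.4 and 53 with DHT+ENZ. The last group lay wholly above the DHT group at region 7 (29 ± 15.2, adjusted p = 0.3875), and the other groups overlapped. BCHE regions 1 and 9 were top-ranked in 10 and 8 libraries of mixed groups, as was OPRK1 region 5 in 10, and none of these was called in any contrast on the rank score. On log2 fold enrichment OPRK1 region 5 (0.82, adjusted p = 0.001531) and BCHE region 9 (1.15, adjusted p = 1.185e-05) were higher in RES-A.

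Across the treatments, RES-A differed from LNCaP at 9 of the 20 regions. Lower in RES-A were 7 of 20, beside 22.9% of all regions, and higher were 2 of 20, beside 26%. The lower ones were OPRK1 region 1 (0 against 43.1, difference -43.1 ± 8.9, adjusted p = 0.0004109) and region 3 (-39.8 ± 8.1), SESN3 region 1 (-44.1 ± 6.6) and BCHE regions 2, 3, 5 and 7. On the rank score the largest difference was that of BCHE region 2, at 4.8 against 75.1 (-70.3 ± 7.3, n = 12 and 12, adjusted p = 7.405e-08). BCHE region 3 differed by -46.5 ± 7.8, region 7 by -34.1 ± 7.6 and region 5 by -27.9 ± 7.3. The higher ones were BCHE region 6 and CAMK2N1 region 1. BCHE region 6 (chr3:165518566-165519094) scored 0 in 11 of 12 LNCaP libraries and 0.1 in the other, against 13.5 to 54.7 in RES-A (34.9 ± 4.9, adjusted p = 5.265e-06). Thus the BCHE window held sites of both kinds. The surrounding chromatin moved with the subline too. In the 5 Mb on either side of the BCHE window, LNCaP libraries held 144 to 185 top-ranked peaks and RES-A libraries 110 to 130, and beside the SESN3 window they held 141 to 161 and 101 to 115. Beside the OPRK1 window the counts were 125 to 153 and 148 to 174. The part of these neighbourhoods in the differences was not tested.

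The split depended on the scale. On log2 fold enrichment of the same 20 regions, 10 were higher and 4 lower in RES-A, beside 59.5% and 9.21% of all regions, whose median difference was 0.467. The higher ones included sites that were top-ranked in every library and uncalled on the rank score. These were BCHE region 4 (0.84) and SESN3 regions 5 (0.49) and 7 (0.57). BCHE region 5 had no difference in favour of LNCaP on that scale (0.05, adjusted p = 0.8371), and OPRK1 regions 1 (-0.31, adjusted p = 0.2847) and 3 (-0.5, adjusted p = 0.0784) and SESN3 region 1 (-0.03, adjusted p = 0.8144) were no longer called. BCHE regions 2, 3, 6 and 7 and CAMK2N1 region 1 kept their call and direction, though region 2 differed by only -0.34 there, less than region 3 (-2.01), region 10 (-1.72) and region 7 (-1.34) of BCHE. The background per base, 0.406 to 5.987 in LNCaP and 1.814 to 4.479 in RES-A, and the fold at rank 50000, 4.266 to 7.294 and 4.4 to 8.917, differed between the sublines. Their part in these differences was not tested.

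**Figure D4:**
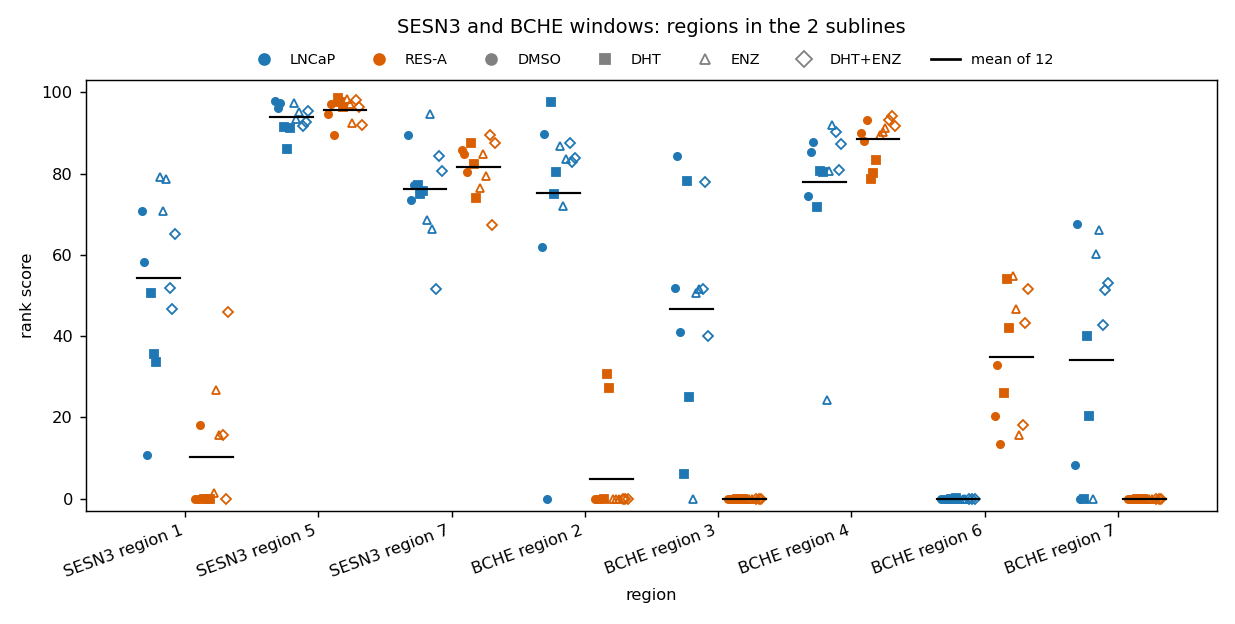
Rank scores of 8 SESN3 and BCHE regions in LNCaP (blue) and RES-A (orange), each point a library, with the marker giving the treatment and the line the mean of 12 libraries. SESN3 regions 5 and 7 and BCHE region 4 were high in both sublines, SESN3 region 1 and BCHE regions 2, 3 and 7 were higher in LNCaP, and BCHE region 6 scored 13.5 to 54.7 in RES-A against at most 0.1 in LNCaP.

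CAMK2N1 had few strong peaks. Its window held 0 or 1 top-ranked peak in each LNCaP library and 0 to 2 in each RES-A library. The gene has MUL1 as a close neighbour, so that a peak in the window may belong to either gene. Region 1 (chr1:20820134-20820639) scored 0 in all 12 LNCaP libraries. In RES-A its scores were 46.8, 0 and 15.7 with DMSO, 0, 7.6 and 21.5 under DHT, 0, 5.4 and 51.9 under ENZ and 6.8, 1 and 23.6 for DHT+ENZ. The subline difference was 15 ± 5.4 (adjusted p = 0.02644), and it was lost without RES-A DMSO replicate 1, RES-A DHT replicate 3 or RES-A DHT+ENZ replicate 3 (adjusted p = 0.0503, 0.051 and 0.0516). Region 2 (chr1:20834536-20834807) scored above 0 in 1 LNCaP and 3 RES-A libraries, at 4.9 and at 12.1 to 20.6.

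Weaker peaks were more frequent in RES-A, in the window and around it. The window held 1 to 4 peaks of any rank in LNCaP libraries and 3 to 9 in RES-A, and the 5 Mb on either side held 185 to 631 and 755 to 959, with 107 to 155 and 240 to 282 top-ranked ones. The difference was thus not particular to the CAMK2N1 window. In the fit on all deposited peaks, 6 of 8 tested CAMK2N1 regions were higher in RES-A and 0 lower. Over the 4 windows 22 of 75 were higher and 16 lower, beside 31.9% and 13.1% of all regions, whose median difference was 0.202. The strongest difference was at chr1:20802930-20803250, with no peak in the 12 LNCaP libraries and peaks in 11 of 12 RES-A libraries, at folds of 2.73 to 7.23 (2.15 ± 0.25 on the log2 scale, adjusted p = 2.936e-07). Region 1 had folds of 2.98 to 5.59 in 10 LNCaP libraries and 5.81 to 11.77 in all RES-A libraries (1.41 ± 0.24, adjusted p = 4.917e-05), without overlap. Region 3 (chr1:20848845-20849141) had peaks in 6 LNCaP libraries, at 2.83 to 4.63, and in 12 RES-A libraries, at 5.04 to 9.78 (1.82 ± 0.32, adjusted p = 8.776e-05). In OPRK1, 7 regions were higher and 6 lower of 20 tested, in SESN3 3 and 2 of 22, and in BCHE 6 and 8 of 25.

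**Figure D5:**
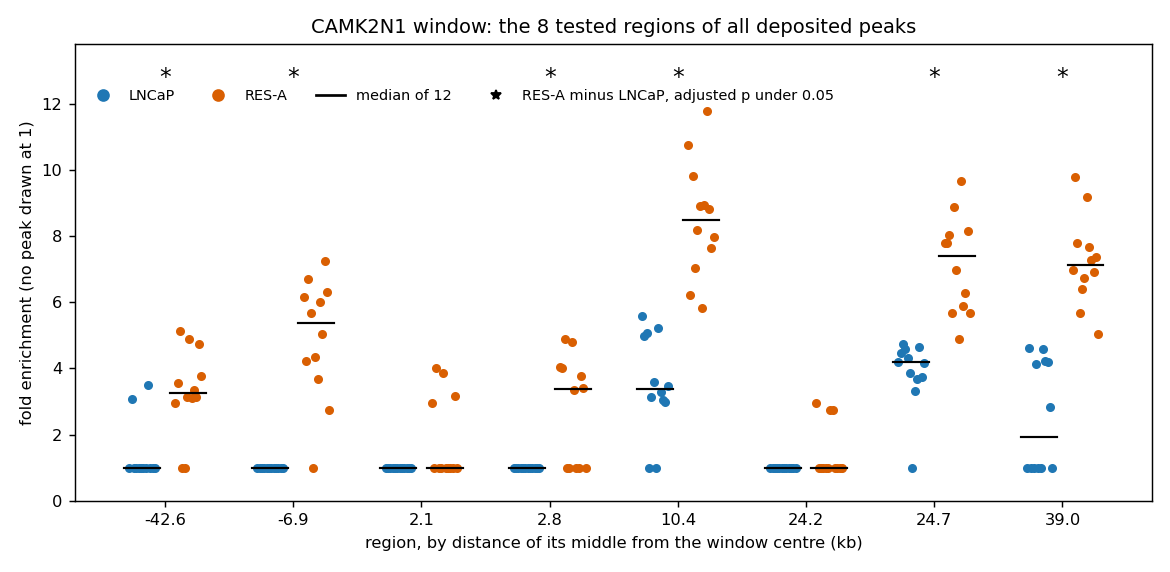
Fold enrichment of the 8 tested CAMK2N1 regions of all deposited peaks in the 12 LNCaP (blue) and 12 RES-A (orange) libraries, with no peak drawn at 1, placed by distance in kb from the window centre. Lines are medians of 12 libraries and stars mark an adjusted p under 0.05 between the sublines. At 10.4 kb the RES-A folds of 5.81 to 11.77 lay above all LNCaP folds.

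ENZ without DHT called no region. In ENZ minus DMSO 0 of 20 were called in LNCaP and in RES-A, beside 0.316% and 0.23% of all regions. At an unadjusted p under 0.05, 1 of 20 rose in LNCaP and 0 passed in RES-A. Of all 82582 regions, 2760 rose and 4750 fell in LNCaP at that limit, and 2203 and 1842 in RES-A. In DHT+ENZ minus DMSO 0 of 20 were called in either subline, beside 0.109% and 1.7%. Here 2 of 20 rose in LNCaP and 0 passed in RES-A at an unadjusted p under 0.05. Of all regions, 3013 rose and 2819 fell in LNCaP at that limit, and 4044 and 3589 in RES-A. The difference between the sublines was called at 0 of 20 regions for DHT minus DMSO and for DHT+ENZ minus DHT, beside 4.79% and 2.18%. Of the 20, 2 and 1 were under an unadjusted p of 0.05. Of all regions, the DHT minus DMSO difference was higher in RES-A at 6738 and lower at 6656 at that limit. For DHT+ENZ minus DHT these were 4529 and 4621. Whether LNCaP and RES-A respond differently at these loci was thus not resolved.

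For comparison, windows around genes known to be induced by androgens and around a further repressed gene were counted the same way. Every library held 7 to 10 top-ranked peaks in the window of KLK2 and KLK3, genes that mark prostate luminal cells. KLK2 and KLK3, which encode secreted prostate proteases, had 1 of 10 tested regions that rose with DHT in LNCaP and 0 in RES-A. TMPRSS2, a membrane-bound serine protease, had 0 of 12 in LNCaP and 3 of 12 in RES-A. FKBP5, which encodes a co-chaperone of steroid receptors, had 2 of 15 and 4 of 15. MET, the further repressed gene, encodes a receptor tyrosine kinase and had 1 of 11 and 2 of 11 that rose. No region of these 4 windows fell with DHT in either subline. In DHT+ENZ minus DHT, 1 of 15 FKBP5 regions and 1 of 11 MET regions fell in LNCaP, and 3 of 15 FKBP5 regions in RES-A. The only rise there was at 1 of 10 KLK2 and KLK3 regions in RES-A. Of all 82582 regions, 2528 fell and 1251 rose in LNCaP, and 2559 and 1585 in RES-A.

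Over the 4 windows together, the number of top-ranked peaks changed little with treatment. LNCaP libraries held 9 to 12 with DMSO, 10 to 15 with DHT, 10 to 13 with ENZ and 12 to 14 with DHT+ENZ. RES-A libraries held 6 to 10, 8 to 9, 8 to 10 and 7 to 10. All groups of a subline overlapped, other than those of DMSO and DHT+ENZ in LNCaP, which met at 12. The parental mean was 11.83 ± 1.75 (SD, n = 12) and that of RES-A 8.5 ± 1.38 (n = 12). In the SESN3 window alone, RES-A libraries held 2 to 4 with DMSO, 2 with DHT and 3 to 4 with ENZ. By window, top-ranked peaks made up 19.5% of the OPRK1 peaks in LNCaP and 10.1% in RES-A, beside 22.5% and 23.4% in the 5 Mb on either side. For CAMK2N1 the shares were 6.67% and 17.3% (flanks 26.9% and 32%), for SESN3 23.1% and 20.1% (flanks 21.9% and 23.2%), and for BCHE 25.3% and 25% (flanks 22.4% and 22.6%).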

How the data were processed

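FAIRE-seq peak lists of 24 libraries (8 groups of 3) were analysed. According to the study's methods and the submitters' processing notes, the authors aligned 50-bp single-end reads to hg19 with BWA 0.7.8-r455, marked duplicates with Picard 1.118 and called peaks per library with MACS2 2.1.0. The caller's options are not given in the sources used here. Per the file headers, each deposited list gives a peak's position, its pileup (a signal in reads), −log10 p-value, −log10 q-value and fold enrichment (a ratio over the local background). All deposited q were under 0.05. Read counts were not used here, so depth is known only through the background, (pileup + 1)/fold − 1 at its minimum.

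Peaks on 24 chromosomes were ranked within each list on −log10 p. Overlapping top-ranked peaks (at least 1 bp) were merged, and rank scores of regions called in at least 3 libraries were tested across the genome with limma 3.58.1 (R 4.3.3; 8 group means, trended eBayes, two-sided, Benjamini-Hochberg over 82582 regions, threshold 0.05). The fit was tried on simulated data with known falls, placed only in regions of a higher mean score. That simulation does not show how often falls at low-scoring members would be found. Regions named are those called with DHT or DHT+ENZ, the 3 of highest mean score per locus and those of smallest p in DHT minus DMSO per locus and subline. Other regions were named after their values were seen. The alternatives tried were 25000 or 70000 top-ranked peaks, ranking on fold, log2 fold enrichment, a q of 0.01, other filters, 500-bp tiles, a replicate block, the background as a covariate and leaving out libraries. Members and lists were chosen with earlier results of these data known. The genome given was GRCh38, whereas peaks lay beyond its ends on 15 of 24 chromosomes. It was therefore used only for the order of neighbouring genes (GRCh38.p14).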

Additional observations from a re-analysis of the deposited data

How the results depend on the processing

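No member region fell with DHT in RES-A under any alternative to the rank-score test, although 1 fell on all peaks without DMSO replicate 2 or DHT replicate 3. In LNCaP, falls appeared on log2 fold enrichment (SESN3 region 5, also at a q of 0.01), without DMSO replicate 3 or ENZ replicate 1, and with log2 of the background as a covariate of the fit on all peaks (5 regions called, 4 of them falls). The cause was not tested. Member regions called in DHT minus DMSO in LNCaP, 1 in the main test, became 0 with 25000 top-ranked peaks, ranking on fold, 500-bp tiles, a minimum of 6 libraries, the replicate block or without the libraries of a background under 1, and ranged from 0 to 2 with each library left out (0 without DMSO replicate 1 or DHT replicate 2 or 3, 2 without RES-A DHT+ENZ replicate 1). In RES-A, 1 became 0 with 25000 peaks, ranking on fold and log2 fold enrichment (both q limits), 2 with tiles and 3 on all deposited peaks with or without the covariate, and ranged from 0 to 1. With 70000 peaks the count stayed at 1, but the region called was BCHE region 2 and no longer OPRK1 region 2. DHT+ENZ minus DHT in LNCaP went from 0 to 1, a fall of BCHE region 10, with 70000 peaks and with the covariate, and ranged from 0 to 1. In RES-A it went from 0 to 1 without the libraries of a background under 1 (BCHE region 4, higher) and on all peaks with or without the covariate (OPRK1 region b, lower), and ranged from 0 to 1. The difference between the sublines in DHT minus DMSO was called at 1 region, BCHE region 10, with 70000 peaks, and this and the difference in DHT+ENZ minus DHT ranged from 0 to 1. RES-A minus LNCaP was called at 9 of 20 regions, and at 14 of 20 on log2 fold enrichment (both q limits). It gave 38 of 75 on all peaks and 43 of 75 there with the covariate. Over all regions, 26% were higher and 22.9% lower in RES-A in the main test. These shares were 59.5% and 9.21% on log2 fold enrichment and 31.9% and 13.1% on all peaks. Where the regions themselves changed, it gave 5 with 25000 peaks, 14 with 70000 peaks and 17 with tiles. With each library left out it ranged from 8 to 10. BCHE region 5 changed sign in RES-A minus LNCaP, to 0.0513 on log2 fold enrichment (both q limits, and on all peaks) and 0.0624 with the covariate. ENZ minus DMSO and DHT+ENZ minus DMSO stayed at 0 throughout.

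The replicate numbers of the labels were not taken to pair the libraries, since same-numbered libraries deviated from their group means with correlations of -0.108 to 0.209 in LNCaP (9 of 18 below 0.1) and -0.049 to 0.081 in RES-A (18 of 18). With the replicate block, 0 regions were called in DHT minus DMSO in LNCaP, 1 in RES-A (OPRK1 region 2) and 5 in RES-A minus LNCaP.

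Mean top-ranked peaks per library changed from 1.96 to 0.42 (25000 peaks) and 13.04 (all peaks) for OPRK1, from 0.67 to 1.42 (70000 peaks) and 4.62 for CAMK2N1, from 3.25 to 4.67 (70000) and 14.96 for SESN3, and from 4.29 to 2.25 (25000), 6.12 (70000) and 17.04 for BCHE. Peak lists hold no value below the caller's limit, and a fold of 1 where no peak was called understates signal most in the shallow libraries.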
